A study of Mus musculus with 20 samples.

Results

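The effect of Tet2 deficiency in cells without p300 was examined through the H3K27ac peaks of Ep300Δ/Δ and Ep300Δ/ΔTet2-/- lineage-negative (Lin-) bone marrow cells. The 2 peak lists were merged on the 19 autosomes. A merged region was called lost if no Ep300Δ/ΔTet2-/- peak overlapped it by at least 1 bp, gained if no Ep300Δ/Δ peak did, and otherwise retained. This gave 23773 regions, out of 34536 merged H3K27ac regions over the 4 genotypes of the study and 129973 merged regions over all 12 of its peak lists. The terms lost and gained describe presence or absence of a peak call and are not measured amounts of acetylation.

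The 4 genotypes were WT (Ep300 fl/fl), Ep300Δ/Δ (Mx1-Cre;Ep300 fl/fl), Tet2-/- (Ep300 fl/fl;Tet2-/-), and Ep300Δ/ΔTet2-/- (Mx1-Cre;Ep300 fl/fl;Tet2-/-). All carried floxed Ep300, were on a C57BL/6 background, were of either sex, and received 3 doses of poly(I:C), first given at 6 to 8 weeks of age. Mx1-Cre is switched on by interferon, which poly(I:C) induces, and acts in hematopoietic and in other interferon-responsive cells. For Tet2 a null allele is given and no inducible one is named. The comparison is therefore between genotypes, and lost and gained do not mean an order of events. The labels state a Lin- purity above 80%. Whether cells of several mice were pooled is not stated. The methods place experiments 2 weeks after poly(I:C) unless another time is given. There was 1 library per genotype and mark, which left variation among mice unmeasured, and genotypes were compared without P values.

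H3K27ac marks active promoters and enhancers, and p300 is one of the acetyltransferases that place it, with CBP, encoded by Crebbp, as its close relative. TET2 oxidizes methylated cytosine, mostly at CpG, and its loss is frequent in myeloid malignancies, where stem cells gain self-renewal. Lin- cells are what remains of bone marrow once cells with mature lineage markers are removed, a fraction rich in stem cells and in myeloid, erythroid, and lymphoid progenitors. The label fit the peaks: of 30 stem and progenitor genes, 20 had an acetylated promoter in Ep300Δ/Δ cells, among them Kit, Flt3, Meis1, Erg, and Runx1. Of 18 stromal and endothelial genes, 2 (Pecam1 and Runx2, which blood cells also use) had an acetylated promoter in either list, and the defining stromal and endothelial genes Col1a1, Cxcl12, Lepr, and Cdh5 had none. The promoters of Ep300 and Tet2 kept their peaks, which do not check the deletions.

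The 6 distal regions shown here carry the changes described below at Irf8, Etv6, and Runx1, where most distal regions were lost, and at Kit, Rreb1, and Ugcg, where several were gained. They were chosen from the genes with many changes for their roles in blood or their number of gains. Each is shown by the 200 bp around the summit of its strongest peak, plus strand of GRCm38 (mm10), from the RefSeq assembly. Capitals mark CpG, the main substrate of TET2. The Irf8 sequence (chr8:120777681-120777880) and the Etv6 sequence (chr6:134186813-134187012) are intronic, and the Runx1 sequence (chr16:93028565-93028764) is intergenic. Of the gained regions, Kit (chr5:75744562-75744761) is intergenic, and Rreb1 (chr13:37863486-37863685) and Ugcg (chr4:59205199-59205398) are intronic.
Irf8 lost: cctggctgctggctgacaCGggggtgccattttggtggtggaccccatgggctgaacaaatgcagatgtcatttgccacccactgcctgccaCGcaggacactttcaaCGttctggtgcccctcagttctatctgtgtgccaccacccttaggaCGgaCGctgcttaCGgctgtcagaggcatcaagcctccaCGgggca
Etv6 lost: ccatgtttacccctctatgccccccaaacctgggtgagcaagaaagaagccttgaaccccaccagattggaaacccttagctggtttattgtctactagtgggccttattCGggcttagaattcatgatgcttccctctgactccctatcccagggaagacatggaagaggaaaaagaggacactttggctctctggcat
Runx1 lost: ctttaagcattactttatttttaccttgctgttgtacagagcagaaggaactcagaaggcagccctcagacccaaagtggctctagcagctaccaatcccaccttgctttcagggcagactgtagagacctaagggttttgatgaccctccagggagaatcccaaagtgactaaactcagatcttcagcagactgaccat
Kit gained: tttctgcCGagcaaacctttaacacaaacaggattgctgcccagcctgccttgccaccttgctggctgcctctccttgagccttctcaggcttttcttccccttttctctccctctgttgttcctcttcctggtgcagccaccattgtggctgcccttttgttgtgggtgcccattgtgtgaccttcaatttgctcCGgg
Rreb1 gained: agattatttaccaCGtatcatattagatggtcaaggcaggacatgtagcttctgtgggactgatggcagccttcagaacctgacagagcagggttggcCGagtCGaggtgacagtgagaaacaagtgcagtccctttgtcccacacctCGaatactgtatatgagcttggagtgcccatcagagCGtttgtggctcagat
Ugcg gained: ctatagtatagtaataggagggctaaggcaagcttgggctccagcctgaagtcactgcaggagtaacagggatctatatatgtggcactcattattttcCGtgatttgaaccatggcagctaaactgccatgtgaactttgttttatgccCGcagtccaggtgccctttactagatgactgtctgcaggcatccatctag

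The windows held 7 CpG at Irf8, 1 at Etv6, 0 at Runx1, 2 at Kit, 5 at Rreb1, and 2 at Ugcg. Of 15 consensus motifs searched on both strands, the Irf8 window held the E-box CAGATG, the Etv6 and Runx1 windows held CCAAT, and the Ugcg window held the MYB motif AACNGCC. These are common letters: CAGATG was present in 17.2%, CCAAT in 18.5%, and AACNGCC in 7.98% of all distal windows of this length. No searched motif was present in the Kit and Rreb1 windows.

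The Ep300Δ/Δ list held 22190 autosomal peaks with a median width of 402 bp, and the Ep300Δ/ΔTet2-/- list held 17846 peaks with a median width of 533 bp. Of the former, 7.24% lay above the stated q of 0.05, against 0.784% of the latter. Peak lists do not give library depth. The part of depth in the counts was not tested, and counts with stricter q, with equal list size, and with equal peak width are given below.

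Most H3K27ac regions of Ep300Δ/Δ cells were also called in Ep300Δ/ΔTet2-/- cells, and those not called there outnumbered those called there alone. Of 20568 Ep300Δ/Δ regions, 6468 were lost (31.4%; 30.8% to 32.1%) and 14100 were retained. Of 17305 Ep300Δ/ΔTet2-/- regions, 3205 were gained (18.5%; 17.9% to 19.1%). Intervals here and below are exact Clopper-Pearson 95% intervals and cover counting error only. Losses made up 66.9% of the changed regions (65.9% to 67.8%). This excess depended on how weak peaks were treated. With the 17846 peaks of highest −log10 q in each list, 3578 regions were lost and 4275 were gained, so that losses made up 45.6% of the changes. With only peaks of −log10 q of at least 5, the counts were 2150 and 3609, or 37.3% losses. With q of at most 0.05 losses were 60.9%. The upper part of each list by fold held 941 lost and 369 gained regions (71.8% losses). This setting kept the classes found with all peaks and took changed regions at or above the median fold of their own list. That median was 5.91 for losses and 6.87 for gains, so the bars differed and the lists were not recounted. Replacing every peak by 500 bp on either side of its summit gave 61.9% losses. No net direction can therefore be given.

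**Figure D1:**
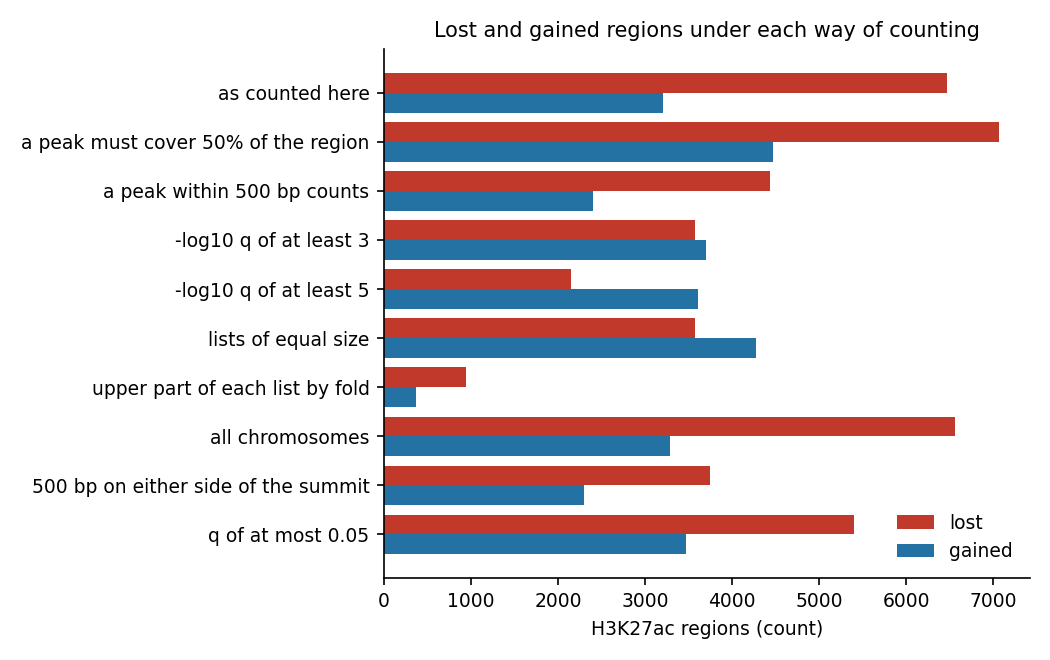
Number of lost (red) and gained (blue) H3K27ac regions, autosomal except in the count over all chromosomes, from Ep300Δ/Δ to Ep300Δ/ΔTet2-/- cells (x axis, counts) under each way of counting (y axis); bars are counts of 1 library per genotype and carry no error. Losses lead in 7 of the 10 ways, and gains lead with stricter −log10 q or lists of equal size.

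The strongest regions were shared by both genotypes. When the Ep300Δ/Δ regions were ordered by fold enrichment over the H3 library and cut into 4 groups of like size, 1.38% of the strongest group was lost, then 15.5%, 43.7%, and 65.2% of the weakest. Gains followed the same order within the Ep300Δ/ΔTet2-/- list, from 0.924% of the strongest part to 39.9% of the weakest. Median widths were 266 bp for lost, 349 bp for gained, and 675 bp for retained regions, which join peaks of both lists, and wider regions overlap more easily. Among retained regions, the strengths within the 2 lists had a Spearman correlation of 0.679 across 14100 regions, which are not independent and share promoter type and base composition.

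**Figure D2:**
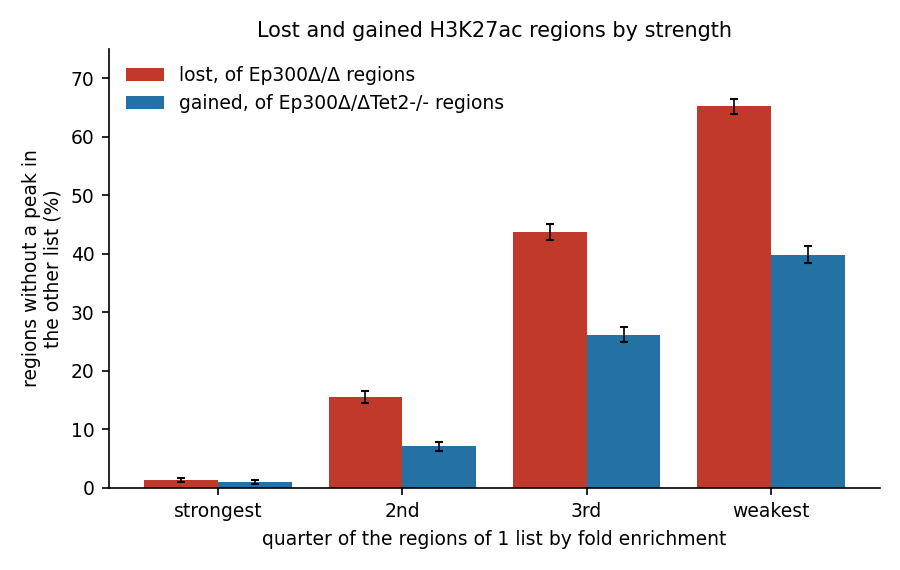
Share (y axis, %) of Ep300Δ/Δ regions that were lost (red) and of Ep300Δ/ΔTet2-/- regions that were gained (blue), in 4 equal parts of each list ordered by fold enrichment (x axis); error bars are Clopper-Pearson 95% intervals. Of the strongest parts 1.38% and 0.924% changed, and of the weakest 65.2% and 39.9%.

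A larger share of distal than of promoter regions changed. Promoters reached 3000 bp up and down from each GENCODE transcript start. Of the promoter regions of Ep300Δ/Δ cells, 3728 were lost (24.4%) and 11557 were retained, and 1648 were gained (12.5% of those of Ep300Δ/ΔTet2-/- cells). Outside promoters, 2740 of 5283 regions were lost (51.9%; 50.5% to 53.2%) and 1557 of 4100 were gained (38.0%; 36.5% to 39.5%). Of the lost regions, 57.6% lay at promoters, 24.4% in introns, 15.1% between genes, and 2.84% in exons. Gained regions lay at promoters in 51.4%, in introns in 27.1%, and between genes in 18.1% of cases, whereas 82.0% of retained regions lay at promoters.

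Many promoters with a lost or gained region kept another H3K27ac peak. Of the lost regions at promoters of protein-coding genes, 64.1% shared the promoter window with an Ep300Δ/ΔTet2-/- peak, as did 59.2% of the gained ones with an Ep300Δ/Δ peak. Within 500 bp, 41.3% of lost and 37.3% of gained promoter regions had a peak of the other list. The 8 lost promoter regions of highest fold were all of this kind and lay 77 to 439 bp from the nearest Ep300Δ/ΔTet2-/- peak. They belonged to Ythdf2, a reader of RNA methylation, to Slain2, Gm49320, Rab14, Smap2, Rbm27, and Gtdc1, and to Stau1, a binder of double-stranded RNA. Ythdf2 and Slain2 led with a fold of 17.6. All 8 had H3K27ac peaks in both WT and Tet2-/- cells.

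Active enhancers, taken as H3K27ac peaks outside promoters with an H3K4me1 peak of the same genotype, showed the same balance. In all, 2568 of 4786 were lost (53.7%; 52.2% to 55.1%) and 1401 of 3619 were gained (38.7%; 37.1% to 40.3%). Losses led here too with all peaks (64.7% of changes) and did not with lists of equal size (41.6%). H3K4me1, which also marks enhancers that are not active, mostly stayed: 2347 of the 2568 lost enhancers (91.4%; 90.2% to 92.5%) still had an H3K4me1 peak in Ep300Δ/ΔTet2-/- cells. Of the gained enhancers, 1105 (78.9%; 76.6% to 81.0%) already had one in Ep300Δ/Δ cells.

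The lists of WT and Tet2-/- cells, which the definition of the classes did not use, place these regions relative to normal cells. Of lost regions, 72.9% (71.7% to 73.9%) had an H3K27ac peak in WT and 50.8% (49.5% to 52.0%) in Tet2-/- cells. Gained regions had one in 48.2% (46.5% to 49.95%) and 47.5% (45.7% to 49.2%) of cases, and retained regions in 95.6% and 94.3%. Among lost regions with a WT peak, 60.9% (59.5% to 62.3%) also had a Tet2-/- peak, against 95.9% (95.6% to 96.2%) of retained ones. The gap was present in each of the 4 parts of the list by strength, from 90.0% against 99.8% in the strongest to 55.0% against 86.9% in the weakest. Among regions without a WT peak, 30.7% (28.5% to 32.9%) of the gained and 23.7% (21.7% to 25.8%) of the lost ones had a Tet2-/- peak, against 59.6% (55.6% to 63.5%) of the retained ones. Of all gained regions, 35.9% had no peak in either WT or Tet2-/- cells.

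**Figure D3:**
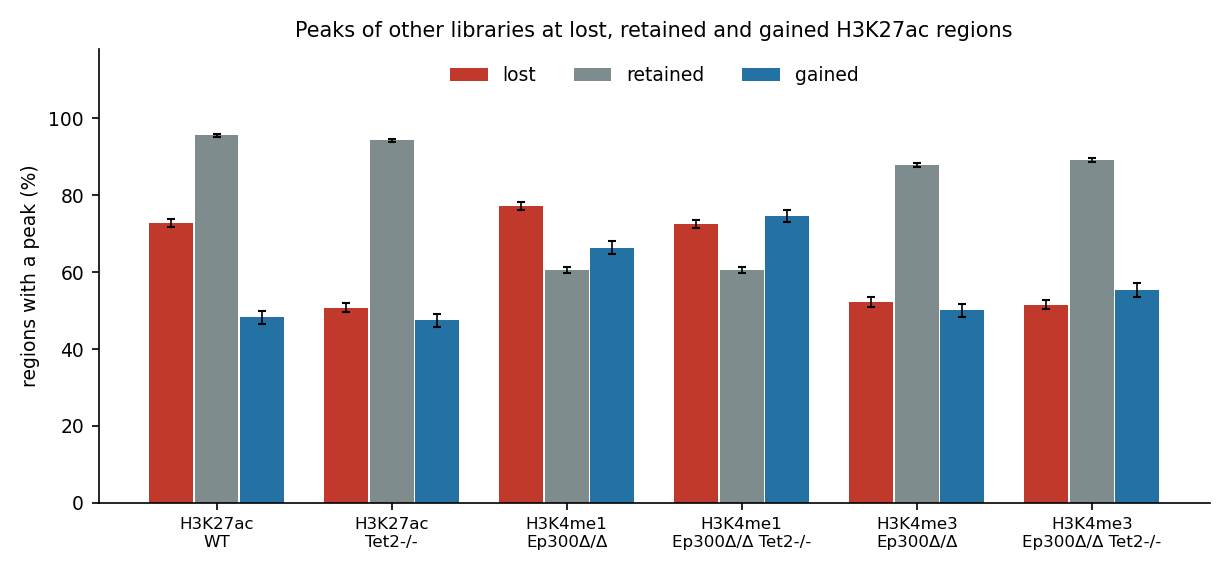
Share (y axis, %) of lost (red), retained (grey), and gained (blue) regions with a peak in other libraries (x axis, mark and genotype); error bars are Clopper-Pearson 95% intervals. Retained regions have WT and Tet2-/- H3K27ac peaks in 95.6% and 94.3% of cases, lost regions in 72.9% and 50.8%, and gained regions in 48.2% and 47.5%.

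Tet2 deficiency in the presence of p300, from WT to Tet2-/- cells, gave 10015 lost regions (35.8%) and 4587 gained regions (20.4%), and losses made up 68.6% of its changes. The balance of losses and gains was of like size with and without p300 when all peaks counted. With −log10 q of at least 5 the 2 settings parted, with 67.2% losses in the presence of p300 and 37.3% in its absence. With lists of equal size the values were 52.2% and 45.6%. The 2 comparisons share no library.

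Most distal regions near genes of the monocyte and dendritic cell program were lost under each of 4 ways of counting. Distal regions were given to the nearest protein-coding start. Of 32 distal Ep300Δ/Δ regions near the 22 genes of this list, 23 were lost (71.9%, against 51.9% of all distal regions), and 5 of 14 Ep300Δ/ΔTet2-/- regions were gained (35.7%, against 38.0%). With lists of equal size, 13 of 19 were lost (68.4%, against 38.4% of all) and 8 of 14 were gained (57.1%, against 48.5%). With −log10 q of at least 5, 8 of 11 were lost (72.7%, against 31.6%) and 4 of 7 were gained (57.1%, against 47.7%). With assignment to the start of any transcript 19 were lost (73.1%). Gains near these genes thus also lay above the background under the stricter counts. Regions near 1 gene are not independent, and Irf8 held 9 of the 23 losses, 7 of the 13 with lists of equal size, and 5 of the 8 with −log10 q of at least 5. The others included 3 at Ly86, part of an endotoxin receptor complex, and 2 each at Klf4, Cd74, Ccr2, and Spi1, which encodes the myeloid factor PU.1.

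Irf8 encodes the transcription factor that directs progenitors toward monocytes and dendritic cells (chromosome 8, 120736358 to 120756694). Its main promoter peak was retained, and 4 narrower regions near its starts were lost. Downstream of the gene, Ep300Δ/Δ cells had 11 distal peaks 24.0 to 62.0 kb from its start, and 9 of these were lost. At these 11 regions, WT cells had 7 peaks, Tet2-/- cells 2, and Ep300Δ/ΔTet2-/- cells 2. The Ep300Δ/Δ and Ep300Δ/ΔTet2-/- counts there follow from the definition of lost regions and the choice of a gene with many losses. Only the WT and Tet2-/- counts lie outside that choice. The strongest lost region (fold 6.77, at 41.5 kb, sequence above) had a WT peak and no Tet2-/- peak. With lists of equal size there were 7 losses and 1 gain among distal Irf8 regions, and with −log10 q of at least 5 there were 5 losses. A gained region (fold 4.86) lay 20.2 kb upstream in a promoter window of Gm20388. All 9 lost regions lay in introns of this long overlapping gene. H3K4me1 was called at 6 of the 9 in Ep300Δ/Δ and at 5 in Ep300Δ/ΔTet2-/- cells.

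Etv6, a repressor of the ETS family needed by bone marrow stem cells, had the most lost distal regions by nearest protein-coding start. Of its 24 distal Ep300Δ/Δ regions, 17 were lost, 7 were retained, and 2 others were gained. Over these 26 regions WT cells had 23 peaks, Ep300Δ/Δ 24, Tet2-/- 18, and Ep300Δ/ΔTet2-/- 9. H3K4me1 was called at all 26 in every genotype. A run of 9 neighboring lost regions over 50.2 kb, with no other class between them, held 5 of these distal regions and 4 in promoter windows. With lists of equal size 12 were lost. With assignment to the start of any transcript, noncoding included, Etv6 lost 5, fewer than the 9 each at Irf8, Runx1, and Foxp1.

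Several other genes had many lost distal regions, against a share of 51.9% over all. Cd47, whose product protects cells from phagocytosis, lost 15 of 22 distal regions and gained 2. Runx1, a master regulator of blood stem cells, lost 13 of 19 and gained 2. Foxp1 lost 11 of 16, and Zfp36l2, an RNA-binding regulator of self-renewal, lost 9 of 18, at the background, and gained 0. Over all distal regions the lost share was 38.4% with lists of equal size and 31.6% with −log10 q of at least 5. Runx1 then lost 5 of 10 and 2 of 6. For Cd47 the corresponding losses were 10 of 15 and 6 of 10. Foxp1 lost 6 of 11 and Zfp36l2 4 of 13 when the lists were made equal in size. With assignment to the start of any transcript, Cd47 lost 6, Runx1 9, Foxp1 9, and Zfp36l2 0. Rftn1 and Mc2r also lost 9 each. In all, 1655 genes lost at least 1 distal region and 54 lost 5 or more.

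**Figure D4:**
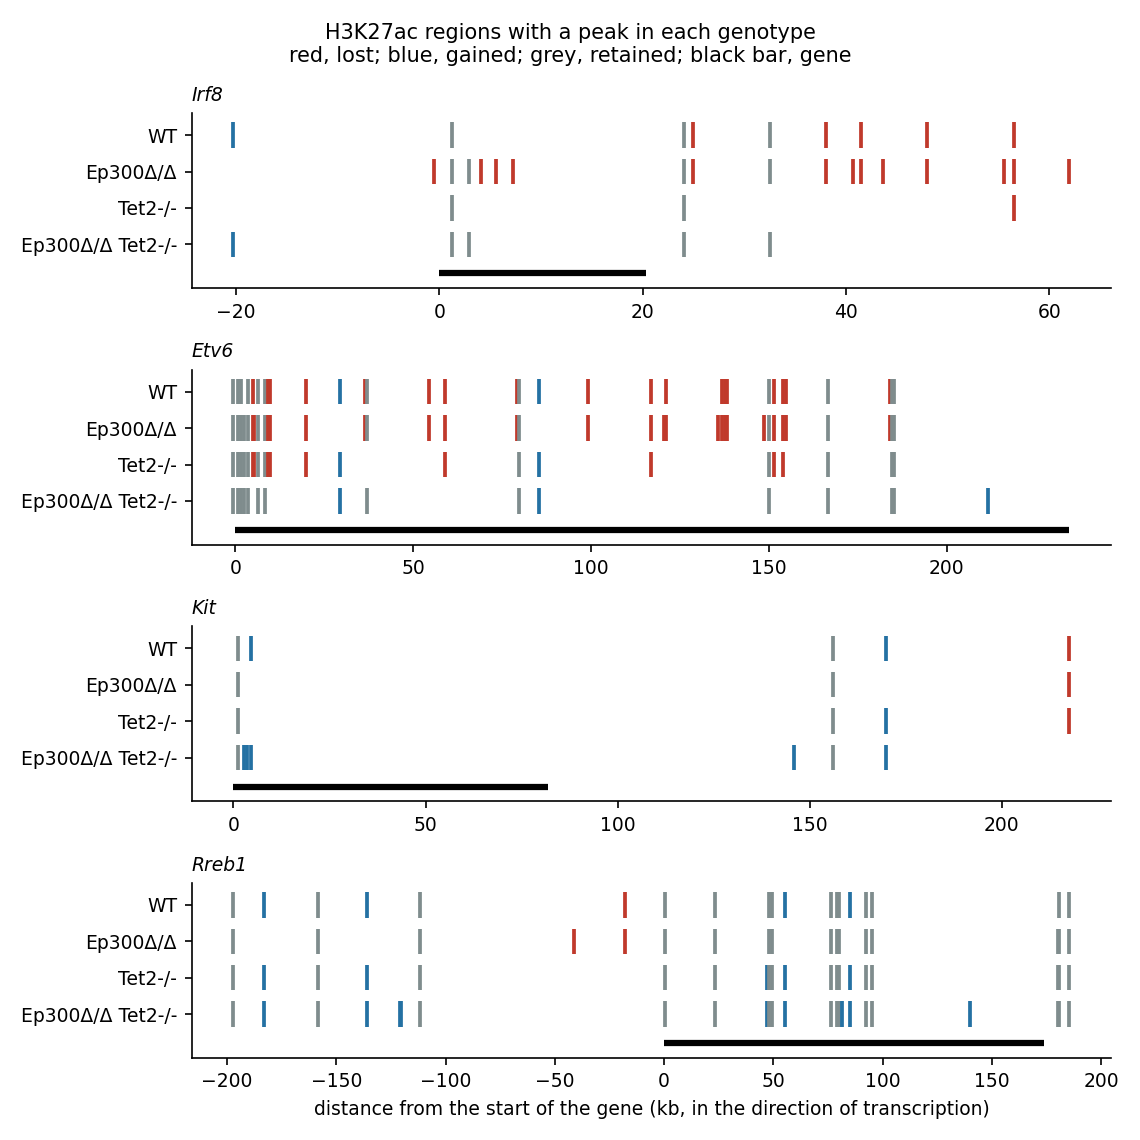
H3K27ac regions at Irf8, Etv6, Kit, and Rreb1 with a peak in each of the 4 genotypes (y axis), by distance from the start of the gene (x axis, kb, in the direction of transcription); red ticks are lost, blue gained, and grey retained regions, and the black bar is the gene. Downstream of Irf8, 7 of 11 distal regions have a WT peak and 2 have a Tet2-/- peak, and at Kit 4 distal regions are blue.

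Gained distal regions lay near 1261 genes, of which 2, Rreb1 and Ugcg, had 5 or more. Rreb1, a zinc finger factor responsive to RAS signaling, gained 7 and lost 1. Ugcg, the enzyme that makes glucosylceramide, gained 6 and lost 1. At the 14 distal regions of Rreb1, WT cells had 9 peaks, Ep300Δ/Δ 7, Tet2-/- 10, and Ep300Δ/ΔTet2-/- 13. Under stricter −log10 q both genes had gains (7 at Rreb1 and 3 at Ugcg) and 0 losses. With assignment to the start of any transcript, gains numbered 3 at Rreb1, 3 at Ugcg, 2 at Kit, 3 at Cdk6, and 1 at Bach2. Kit, the stem cell factor receptor, gained 4 and lost 1 of 5 distal regions. Of these 5, WT cells had 3, Ep300Δ/Δ 1, Tet2-/- 2, and Ep300Δ/ΔTet2-/- 4. Another new Kit region was 2.8 kb downstream of the gene start, inside the promoter window, next to the retained promoter peak. Cdk6, which drives entry into the cell cycle, and Bach2 and Bcl11a, regulators of lymphoid development, gained 4 each and lost 2, 2, and 3. Over all distal regions of Ep300Δ/ΔTet2-/- cells 38.0% were gained, and other genes, such as Akap13 and Max, also gained 4.

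Stem and progenitor genes as a group lay near the background. Near these 30 genes, 39 of 69 distal regions were lost (56.5%, against 51.9% of all) and 19 of 49 were gained (38.8%, against 38.0%), and Runx1 and Fli1 held 20 of the 39 losses. In equally long lists, losses came to 18 (43.9%, against 38.4%) and gains to 26 (53.1%, against 48.5%). Lymphoid priming genes lost 17 of 41 (41.5%) and gained 17 of 41, and in equally long lists losses came to 4 (17.4%) and gains to 22 (53.7%). Gains were spread there, with 4 at Bcl11a, 3 at Ets1, and 2 each at Satb1, Sox4, and Id2. Genes of NF-κB signaling and inflammation lost 13 of 19 distal regions (68.4%) and gained 2 of 8 (25.0%), with 2 losses each at Nfkb1, Nfkbia, Nfkbiz, Tnfaip3, and Birc3. The counts were 7 lost and 3 gained in equally long lists, and 0 lost and 3 gained with −log10 q of at least 5.

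**Figure D5:**
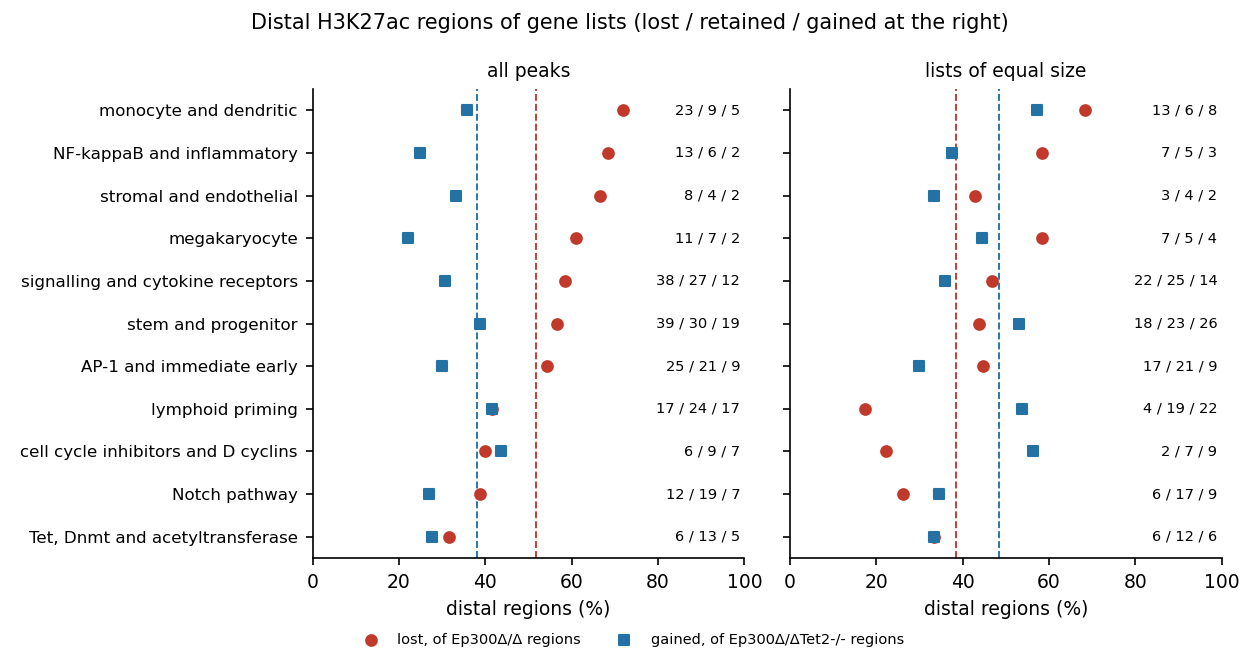
Share (x axis, %) of distal regions that were lost (red circles) and gained (blue squares) near the genes of each list (y axis), with all peaks (left) and with lists of equal size (right); numbers at the right of each panel are lost, retained, and gained regions, dashed lines are the shares over all distal regions, and the points carry no error. The monocyte and dendritic list lies to the right of the red line in both panels, at 71.9% and 68.4%.

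At the level of whole promoters, changes were few. A gene promoter counted as lost if it held an Ep300Δ/Δ peak and no Ep300Δ/ΔTet2-/- peak anywhere in its window. Of 9564 promoters acetylated in Ep300Δ/Δ cells 812 were lost (8.49%), and of 9153 acetylated in Ep300Δ/ΔTet2-/- cells 401 were gained (4.38%). Lists of equal size gave 530 and 656. Of the lost promoters, 80.9% had an H3K27ac peak in WT and 70.3% in Tet2-/- cells, and 95.1% had an H3K4me3 peak in Ep300Δ/Δ cells.

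Monocyte and granulocyte genes were among the lost promoters. Over all promoters 8.49% were lost and 4.38% were gained. Of 16 acetylated monocyte and dendritic promoters 5 were lost (31.2%), namely Csf1r, the M-CSF receptor, Cx3cr1, a chemokine receptor, Itgax, which encodes CD11c, Zbtb46, a factor of classical dendritic cells, and Xcr1. Their folds in the Ep300Δ/Δ list were 5.39, 4.50, 4.86, 3.02, and 3.98, all in its lower part. Ccr2, the chemokine receptor of inflammatory monocytes, was gained with a fold of 5.20. Of 9 granulocyte promoters 3 were lost (33.3%): Elane, the neutrophil elastase gene, Csf3r, the G-CSF receptor, and Itgam, which encodes CD11b. Mpo and Prtn3, further granule enzymes, were retained. With lists of equal size, Csf1r, Cx3cr1, Itgax, Elane, and Csf3r remained lost, and Zbtb46, Xcr1, and Itgam did not. Gains then numbered 2 in the monocyte and dendritic list and 1 in the granulocyte list, beside 530 losses and 656 gains over all promoters. With promoters of 1000 bp, Csf1r, Elane, and Xcr1 held no peak in either list.

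The erythroid genes were split. Klf1, the master regulator of red cell genes, lost all 5 of its regions, with folds of 3.05 to 5.46, although all 5 had peaks in both WT and Tet2-/- cells. The promoter of Hba-a1 was lost, though not with lists of equal size. Hbb-bs (fold 8.83) and Gfi1b (4.18) were among those gained, and 13 further erythroid promoters were retained. Of 15 acetylated erythroid promoters 2 were lost (13.3%, against 8.49% of all), and 3 were gained beside the 13 retained, against 4.38% of all. Globin genes have near-identical copies, so reads may have been placed on either, and those calls are uncertain. Among megakaryocyte genes Gp5 was lost, and 3 of 13, Treml1, Rab27b, and Thbs1, were gained, against 4.38% of all promoters. In equally long lists 6 were gained, and with promoters of 1000 bp Thbs1 was not. Gata1 and Alas2 lie on chromosome X and were not tested.

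Among regulators of stem cells and of chromatin, losses stayed near the share over all promoters (8.49%). Of 20 acetylated stem and progenitor promoters 1 was lost (5.00%), and of 21 promoters of Tet, Dnmt, and acetyltransferase genes 2 were lost (9.52%). Gata2, a stem cell and mast cell factor, lost both of its regions (folds 4.17 and 4.54), which had a peak in Tet2-/- cells and none in WT, although WT cells had a peak elsewhere in the promoter window. Mecom and Mycn, which sustain stem cells, were gained with folds of 3.55 and 5.72. Tet1, a relative of Tet2, was gained with a fold of 9.02, and Dnmt3b, a DNA methyltransferase, with 4.62. The acetyltransferase genes Kat6a (fold 6.48) and Kat2a (fold 3.65) were lost, Kat2a under neither alternative, while 19 of 24 genes of this chromatin list were retained. Of 17 acetylated Notch pathway promoters 14 were retained and 3 were lost (17.6%). Notch2 was the strongest lost promoter among the lists (fold 11.1), and Notch3 and Dll4, a receptor and a ligand of the same pathway, were lost too. Dll4 was not lost with lists of equal size, Notch3 was not with promoters of 1000 bp, and Mecom was not gained with the latter. Of the 5 regions at Notch1, 3 were lost, 1 was gained, and 1 was retained. Dntt, the lymphoid terminal transferase, lost 3 of 4 regions with folds of 3.24 to 3.68, but neither its promoter nor its distal losses held with lists of equal size.

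Other groups ranged from no change to shares like those of the myeloid genes. All 26 promoters of DNA replication and mitosis genes, such as Mcm2, Pcna, and Mki67, were retained. Of interferon-stimulated genes, 22 were retained, none was lost, and the antiviral genes Ifit1, Oas1a, and Oasl2 were gained with folds of 4.37, 4.66, and 5.21 (3 of 25, against 4.38% of all promoters). All mice had received poly(I:C), an inducer of interferon. Immediate early genes kept 21 promoters and lost Atf3, Egr2, and Egr3. Of 7 acetylated B cell promoters Cd79b and Spib were lost (28.6%), and of 7 T and natural killer cell promoters Zap70 and Gzmb (28.6%), against 8.49% of all promoters. In equally long lists 1 promoter of each group was lost, and Spib and Gzmb were not, while 3 of the T and natural killer group were gained. With all peaks the latter gained Klrb1c, a natural killer receptor. Of 3 acetylated basophil and mast cell promoters Gata2 was lost, the protease gene Mcpt8 was gained, and 15 of 19 had no peak. Over all lists, 32 promoters were lost and 17 gained, of which 17 and 17 held with lists of equal size and 21 and 14 with promoters of 1000 bp.

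Single regions of high strength were also lost. Outside promoters, the lost region of highest fold lay 5.19 kb from Sfpq, a splicing factor gene, with a fold of 13.9, and had a WT and no Tet2-/- peak. Those near Nxpe4 (fold 12.7), Irf2bp2 (11.7), Tbc1d5 (11.6), Depdc1b (11.3), and Mxi1 (11.3) followed, with 2 in introns of Etv6 (11.4 and 11.3). The Irf2bp2 and Tbc1d5 regions lay 235 and 409 bp from an Ep300Δ/ΔTet2-/- peak, and the Etv6 regions 678 and 105 bp. Sfpq and the others lay 3182 to 4897 bp from one. Of all lost distal regions, 18.1% had an Ep300Δ/ΔTet2-/- peak within 500 bp. The longest run of lost regions held 12 neighbors over 274 kb from Cbfa2t3 to Ankrd11, of which 11 had a WT and 10 a Tet2-/- peak. These 12 were weak, with folds of 2.50 to 4.75, below the median fold of 5.91 of the Ep300Δ/Δ list. Cbfa2t3 encodes a corepressor of blood progenitors. Runs of 8 lay at H2afy and Tifab, at Il10rb and Ifnar1, and at Irf8, and a run of 9 at Mc2r. Their highest folds were 6.36, 5.35, 6.77, and 4.92.

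The strongest gained regions outside promoters lay near the histone gene Hist2h2bb (fold 23.5), Tigit (14.1), the protease gene Plau (13.7), Gramd4, Slc1a2, Trim27, Diaph1, and Gm13691. All but Hist2h2bb had a WT peak. At promoters, the antisense transcript 4930481A15Rik near Tsga10ip held 2 (folds 34.8 and 20.2). Cdk5rap1 (32.7), Fry (21.3), Rgs1 (17.1), and Akr1b3 (15.9) each held 1. Rgs1, a brake on G protein signaling, lay 81564 bp from the nearest Ep300Δ/Δ peak, whereas Akr1b3 lay 52 bp from one. The other 2 overlapped the small nuclear RNA genes Gm22068 and Rnu1a1 near Tex14. Of the 50 strongest gained regions 7 held the start of a small RNA, against 1 of the 50 strongest lost regions. Over all regions the shares were 0.499% of gained, 0.155% of lost, and 0.667% of retained ones. Such genes are repeated in the genome, and the placement of their reads is uncertain. The longest runs of gained regions held 6 neighbors, and the run from Gli3 to Sugct, 1 of 4 of that length, spanned regions near Inhba.

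Base composition differed between the classes at promoters. Among 200-bp promoter windows, 59.1% of retained, 35.2% of lost, and 25.2% of gained regions had a CpG content of at least 0.6 of that predicted from base content. The SP/KLF motif GGGCGG was present in 24.7% of retained, 19.8% of lost, and 12.1% of gained promoter windows, and in 22.4% of all. Outside promoters, CpG-rich windows made up 2.92% of lost, 7.20% of retained, and 4.24% of gained regions. The ETS motif ACTTCCT was present in 5.80% (4.96% to 6.74%) of lost, 7.24% of retained, and 9.18% (7.80% to 10.7%) of gained distal windows, and in 7.11% of all. Within 250 bp of the summit the ETS shares of lost (24.0%) and gained (27.4%) regions had overlapping intervals. At that width the IRF motif was present in 2.19% (1.68% to 2.81%) of lost and 4.37% (3.41% to 5.50%) of gained distal windows, and in 3.35% of all. The GATA motif AGATAAG was present in 7.88% (6.90% to 8.96%) and 10.9% (9.35% to 12.5%), and in 8.61% of all. Within 100 bp the intervals overlapped for both motifs (IRF 0.547% of lost and 0.771% of gained, GATA 2.01% and 2.76%). At the same width the RUNX motif TGTGGTT was present in 4.31%, 4.84%, and 5.59% of these, with overlapping intervals. The AP-1 motif TGANTCA differed by less than its intervals (6.17%, 6.45%, and 6.10%). These letters are descriptions of the windows and not binding sites.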

How the data were processed

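The study measured histone marks by ChIP-Seq in Lin- bone marrow cells. Groups were taken from the sample labels. Of 20 samples, 12 had a peak list, and the 8 for H3 and H3K27me3 were not analysed here. Per the labels and methods, the authors used cutadapt 1.15, BWA 0.7.13, Picard, and MACS2 2.1.1.20160309 on mm10 and called each library against H3. The deposited columns hold a score (not used here), a fold enrichment, which is a ratio to H3, and −log10 values of P and q. The authors' folds and −log10 q served to order or select peaks inside a list. The labels call the reads single-end and the methods paired-end.

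Lists were merged and compared by overlap. Gene starts were those of GENCODE M21 (GRCm38). Alternatives covered the overlap, q, list size, strength, promoter, and gene assignment. A q of at most 0.05, the distal gene lists under lists of equal size and stricter q, and stricter q for WT to Tet2-/- were chosen after seeing the data. The members and gene lists were chosen with earlier results of these data known. Named genes were the 8 strongest lost and gained regions of each kind, the 5 genes with the most distal changes, list members that changed, genes the study names, and the longest runs. Rftn1, Mc2r, and Bcl11a as genes with many changes were chosen after their values were seen. In tests on simulated data, all 1879 lost, 2909 retained, and 1212 gained regions planted were found, counts equaled those of bedtools 2.31.1 in 8 of 8 cases, and nearest starts were right in 500 of 500. Python 3.11.15 was used with scipy 1.17.1, pandas 2.3.3, numpy 2.4.6, matplotlib 3.10.9, and pysam 0.24.0.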

Additional observations from a re-analysis of the deposited data

Results flagged for a closer look

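Between genotypes with and without Tet2, the autosomal sequence covered by H3K27ac peaks changed by 0.312 Mb in the absence of p300 and by -3.75 Mb in its presence, opposite in sign in 1 library pair each, and the difference was not tested. The median peak width changed by 131 bp without p300 and by -9 bp with it, and the difference was not tested. The number of peaks with −log10 q of at least 5 changed by 1014 without p300 and by -3059 with it, and the difference was not tested.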

How the results depend on the processing

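No paired analysis was possible because each genotype and mark had 1 library. Losses made up less than 50% of the changed regions, reversing the direction, with −log10 q of at least 3 (49.1%; 3568 lost), −log10 q of at least 5 (37.3%; 2150 lost), and lists of equal size (45.6%; 3578 lost), as they did among active enhancers with lists of equal size (41.6%; 1271 lost) and −log10 q of at least 5 (34.3%; 657 lost). The share of losses was 61.2% with an overlap of 50%, 64.9% with peaks within 500 bp, 71.8% in the upper part of each list (941 lost, 369 gained), 61.9% around summits (3741 lost), and 60.9% with q of at most 0.05. From WT to Tet2-/- cells it was 52.2% with equal size (6225 lost) and 67.2% with −log10 q of at least 5 (6518 lost). Promoter shares of lost and gained regions were 44.2% and 39.3% with 1000 bp, and 51.6% and 43.3% with protein-coding starts, where 49.7% and 36.4% of distal regions were lost and gained. With lists of equal size 530 gene promoters were lost and 656 gained. Distal losses at monocyte and dendritic genes numbered 13 with equal size and 8 with −log10 q of at least 5. In the upper part of each list, WT and Tet2-/- peaks were at 93.1% and 75.5% of lost and 60.4% and 68.3% of gained regions. The excess of the ETS motif in gained over lost regions was 3.41 percentage points within 250 bp of the summit, where the intervals overlapped. Stricter q and equal size leave out peaks by construction. The cause of the other shifts was not tested. Of 201 alternative values over 74 results, 86 stayed within their limits, 109 moved, 5 reversed, and 1 weakened. Depth is unknown from peak lists.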

Other observations

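On chromosome X, which was left out of the counts above, 93 regions were lost, 390 were retained, and 76 were gained. The Ep300Δ/Δ list held 0 peaks on chromosome Y, and the Ep300Δ/ΔTet2-/- list held 4. The mice were of either sex, the sex behind each library is not stated, and its part in the counts was not tested.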
